A study of Mus musculus with 2 samples.

Results

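Cells of the mouse dorsal meninges that met a rule for plasmacytoid dendritic cells (pDCs) numbered 71 of the 5816 that passed the quality limits. Of these, 25 were in the Sham library and 46 in the TBI library. Each library was made from the pooled meninges of 5 male C57BL/6 mice, C57BL/6J by the study's methods. The mice were 10 weeks of age by their sample description. Tissue was collected 1 week after a mild closed-skull traumatic brain injury (TBI) or a Sham procedure without the impact. Live single cells were sorted without any lineage marker and profiled by droplet single-cell RNA-seq, in which each captured transcript is counted once through its unique molecular identifier (UMI). With 1 library per group, mouse-to-mouse spread cannot be told apart from the injury, so values are given with exact 95% intervals that cover counting error only and no test was possible. The whole deposit held 2699 Sham barcodes with 9527334 UMIs and 4349 TBI barcodes with 15011079 UMIs, and the kept cells had a median of 2764 and 2663 UMIs.

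pDCs are dendritic cells of the blood, lymphoid organs and tissue borders that sense the nucleic acids of viruses and of dying cells in their endosomes. Toll-like receptors 7 and 9, carried there by the chaperone Unc93b1, signal through Myd88 to the transcription factor Irf7, and the cell can then secrete large amounts of type I interferon, for which it keeps an enlarged secretory apparatus. The E protein Tcf4 sets their identity together with Spib, Runx2 and Irf8, while Id2, the inhibitor of E proteins, marks conventional dendritic cells. Resting pDCs carry little of the machinery for presenting antigen to T cells.

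The 71 cells were chosen by their own transcripts. A member had a UMI of Siglech, which encodes the surface lectin Siglec-H, and of at least 1 more of Ccr9 (a homing receptor for the chemokine CCL25), Klk1 (a kallikrein protease), Cox6a2 (a cytochrome oxidase subunit), Pacsin1 (a membrane-bending protein) and Cd300c (an immunoglobulin-family receptor). Cells in which the macrophage genes C1qa, C1qb and C1qc together reached 0.5% of UMIs, or with any UMI of the B cell gene Cd79a, were left out. Siglech and Cox6a2 are among the genes by which the study defined this cell type in the same libraries, so high levels of the 6 genes describe the choice and are not a finding. Of the 71 members, 29 held all 6 genes, 17 held 5, 7 held 4, 11 held 3 and 7 held 2. Just inside the limit, the 7 members with 2 genes had 1 to 4 Siglech UMIs (median 2) and Bst2 at 343 CPM, the UMIs of a gene in every 1000000 UMIs of the summed cells. Just outside it, 34 cells had Siglech as the only one of the 6 genes, with 1 to 3 UMIs (median 1), Bst2 at 704 CPM and Irf8 at 397 CPM. Irf8 stood at 1628 CPM in the 7 members with 2 genes, but most of its UMIs there, 57, lay in 1 Sham cell. That cell also held 25 UMIs of Id2, so the Irf8 level does not describe the 7 as a group. The exclusions removed 3 cells that otherwise met the rule, 1 for C1q and 2 for Cd79a.

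Depth differed among the members. The Sham members held from 752 to 17484 UMIs (median 7895) and the TBI members from 923 to 12303 (median 6185.5), which gave 197341 and 276274 UMIs to sum. No barcode was shared between the members of the libraries, although 20 barcodes occurred in both deposits and 14 of those among the kept cells. A doublet score marked 33 Sham and 114 TBI cells, 1 member in each library among them, and these were kept. A count of 0 over all 473615 member UMIs allows a level of up to 6.33 CPM (3 UMIs).

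The sequences just before the start of the rule genes are shown because E proteins such as Tcf4 bind the motif CAGNTG, and the 100 bases upstream of the RefSeq start (GRCm38.p6) of each rule gene found in the RefSeq table are printed 5′ to 3′ on the gene's strand, with CAGNTG on either strand in capitals.
Siglech, chr7:55768084-55768183, plus strand: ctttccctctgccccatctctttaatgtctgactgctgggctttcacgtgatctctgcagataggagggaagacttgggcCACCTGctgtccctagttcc
Ccr9, chr9:123767111-123767210, plus strand: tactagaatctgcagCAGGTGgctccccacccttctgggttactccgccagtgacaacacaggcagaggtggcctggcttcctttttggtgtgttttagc
Klk1, chr7:44225260-44225359, plus strand: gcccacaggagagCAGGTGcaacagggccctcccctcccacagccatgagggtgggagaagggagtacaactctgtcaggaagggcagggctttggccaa
Cd300c, chr11:114960508-114960607, minus strand: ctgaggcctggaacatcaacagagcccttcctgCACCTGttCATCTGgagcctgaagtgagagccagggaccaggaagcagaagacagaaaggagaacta
Pacsin1, chr17:27685139-27685238, plus strand: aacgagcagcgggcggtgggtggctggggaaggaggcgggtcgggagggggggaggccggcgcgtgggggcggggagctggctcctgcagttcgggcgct
Over the wider window of 250 bases before to 50 after the start, CAGNTG occurred in 4 of these 5 promoters, in all but that of Pacsin1, against 51.4% of 32851 RefSeq promoter windows of the same length. Among the 20 genes outside the rule named below as the most specific, 15 had a window in the table, and 9 of their 20 windows (45%) held the motif. The composite element of ETS and interferon regulatory factors occurred in 1 of those windows, that of Cd209d, against 2.72% of all, and the core of the interferon-stimulated response element occurred in 1 of the rule gene windows, that of Cd300c, against 3.44% of all. These matches describe the letters of the windows and not binding.

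The members are described here by 40 identity genes that the rule did not use. That list was drawn up with earlier results of these data known, so it is not an independent check of the label. Of the 38 with at least 20 UMIs, 30 were at least 2-fold higher than in other cells in both libraries, beside 10.7% of all genes, and none at least 2-fold lower, which describes the chosen cells. Spib was among the other 8, at 182 and 246 CPM (1.35-fold and 3.48-fold over other cells), with B cells at 665 and 682, as was Tlr7 (0.569-fold and 5.90-fold). Tcf4, the master regulator of pDCs, stood at 684 CPM (574 to 810) in Sham and 1042 CPM (926 to 1170) in TBI, and the next highest of the compared classes were fibroblasts with 205 and 215 CPM. Irf8, a regulator of pDC and type 1 conventional dendritic cell development, stood at 2838 and 3142 CPM in pDCs, against 1287 and 1658 in type 1 conventional dendritic cells (cDC1) and 29.3 and 31.3 in type 2 cells (cDC2). Bst2, the antiviral tetherin and a surface marker of mouse pDCs, stood at 3963 CPM (3690 to 4250) in Sham and 4883 CPM (4626 to 5151) in TBI, with macrophages next at 781 and 777. Runx2, which promotes pDC exit from the bone marrow, stood at 380 and 445 CPM, against 71.9 and 80.1 in fibroblasts and no more than 11.3 in cDC1, cDC2, B cells and macrophages. Among the rule genes, Siglech (chr7:55768178-55778925, plus strand, GRCm38) stood at 1946 and 2172 CPM, Klk1 at 912 and 1009.9 and Cox6a2 (chr7:128205435-128206387, minus strand) at 1449 and 2360.0, and the members held 74.5%, 87.4% and 86% of all UMIs of these genes. The compared classes were gated on their own markers with Siglech at 0, so that their zero for Siglech is fixed by the gate.

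**Figure D1:**
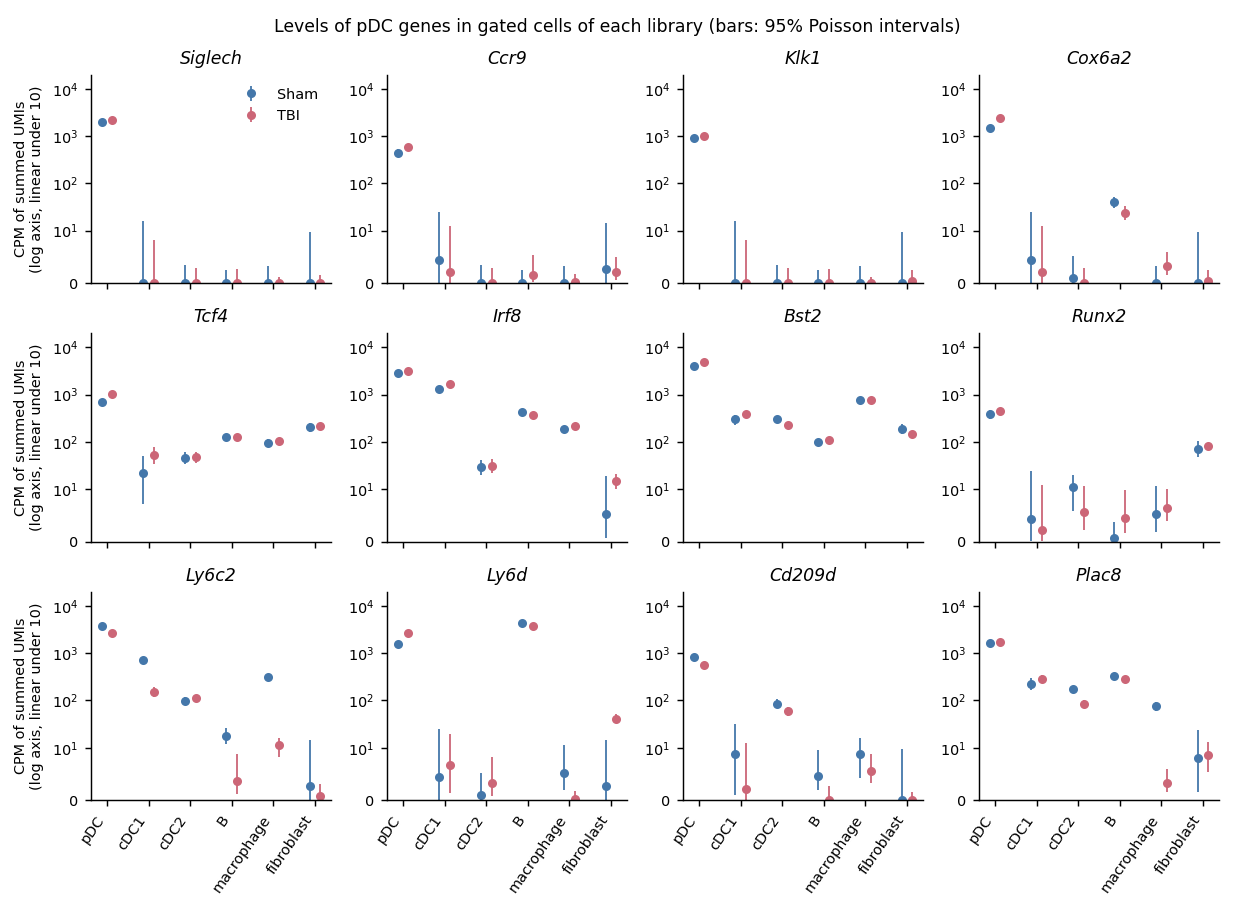
CPM of summed UMIs (vertical axis, logarithmic above 10 and linear under it) of 12 genes in pDCs and 5 other gated classes, Sham in blue and TBI in red, with 95% Poisson intervals. In both libraries pDCs have the highest level of each gene shown except Ly6d, for which B cells are higher at 4325 and 3686 CPM.

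After each cell was thinned to 1000 UMIs, which left out 2 Sham and 1 TBI member, Bst2 was seen in 87% of Sham and 91.1% of TBI pDCs, and without thinning in 92% and 95.7%. In fibroblasts, where a low share can come from free RNA, the thinned shares of Bst2 were 13.5% and 11.3%, at an unthinned median depth of 2583 and 2400.5 UMIs per fibroblast. For Klk1 the thinned share was 39.1% and 51.1% of pDCs and 0% and 0.146% of fibroblasts, and for Cox6a2 it was 56.5% and 71.1% of pDCs and 0% and 0.146% of fibroblasts. Klk1 and Cox6a2 were thus near 0 in a class that should lack them.

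In an unsupervised clustering of all kept cells into 25 clusters, 57 of the 71 members shared 1 cluster of 69 cells, which Klk1, Cox6a2, Siglech, Gm21762 and Ccr9 led. Of the 12 other cells of that cluster, 10 were predicted doublets, 9 had no UMI of the 6 rule genes and 4 had a Cd79a UMI. The other 14 members, 8 Sham and 6 TBI, lay elsewhere. Of these 9 lay in a cluster led by Fscn1, Apol7c and Ccr7, 3 in one led by Cd209a, 1 in one led by the B precursor genes Igll1 and Vpreb1, and 1 in one led by Ccl8. All 71 are called pDCs because they met the rule, but the markers of some of these 14 go against the name. The cell in the cluster led by Ccl8 had 1 Siglech UMI and none of Tcf4, Irf8 or Bst2. A Sham cell in the cluster led by Cd209a had 2 Siglech UMIs and none of Irf8, and cells with Xcr1 are described below. The share of members outside the main cluster thus differed between libraries, 8 of 25 in Sham and 6 of 46 in TBI, and values among the members of the main cluster alone are given below beside several results.

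**Figure D2:**
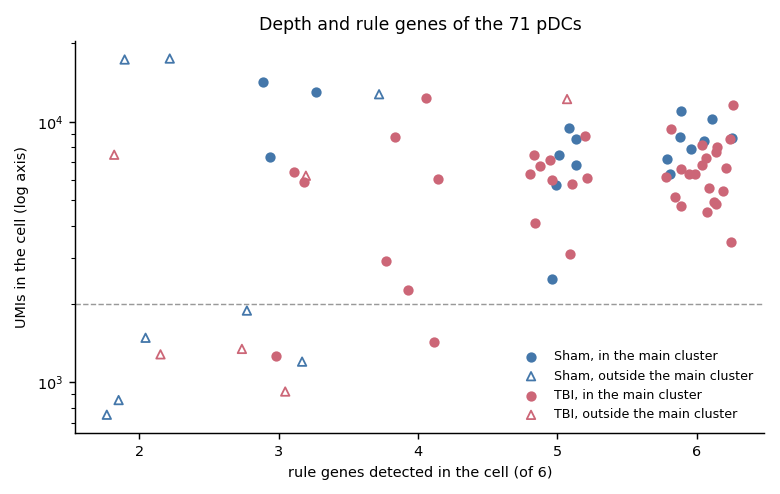
Total UMIs per cell (logarithmic vertical axis) against the number of rule genes detected in the cell (jittered sideways) for the 71 pDCs, Sham in blue and TBI in red, with filled circles for members of the main cluster, triangles for the others and a dashed line at 2000 UMIs. Members outside the main cluster have 2 or 3 rule genes, apart from 1 Sham cell with 4 and 1 TBI cell with 5, and 8 of the 14 lie under 2000 UMIs.

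The share of pDCs did not differ between the libraries beyond counting error. They were 1.22% (0.793 to 1.80) of kept Sham cells and 1.22% (0.894 to 1.62) of kept TBI cells. Among gated dendritic cells, where fibroblasts and other classes are out of the denominator, they were 25 of 139 (18%, 12 to 25.4) in Sham and 46 of 236 (19.5%, 14.6 to 25.1) in TBI. Fibroblasts were 108 of 2043 kept Sham cells and 752 of 3773 kept TBI cells, and outside the fibroblast gate pDCs were 1.29% (0.838 to 1.90) and 1.52% (1.12 to 2.03) of cells. Among cells with a UMI of the pan-leukocyte gene Ptprc, the members with such a UMI were 2.22% (1.41 to 3.31) and 2.69% (1.92 to 3.66). When every cell was thinned to 1000 UMIs and gated anew, the members were 16 of 1655 Sham cells (0.967%) and 36 of 3234 TBI cells (1.11%). With the members of the main cluster alone, the TBI share was 0.228 points higher among kept cells and 4.41 points higher among gated dendritic cells. Over all members these differences were -0.0045 and 1.51 points. A share of a pool does not give the number of cells in the tissue.

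Against all other kept cells of the same library, 386 of the 3591 genes with at least 20 UMIs in the members (10.7%) were at least 2-fold higher in both libraries and 47 (1.31%) at least 2-fold lower. The members were chosen on this contrast, so the counts describe the choice. The 20 genes named here had the largest fold outside the rule, taken from the library where the fold was smaller, among genes with at least 50 UMIs. They include the calcium pump Atp2a1 of the endoplasmic and sarcoplasmic reticulum, the inhibitory receptor Lag3, the lectins Cd209d and Klra17, the TGF-beta family antagonist Lefty1, the UDP-sugar receptor P2ry14, the receptor subunit Csf2rb2, the adaptor Sh2b2, the pyrimidine-degrading enzyme Upb1 and the ciliary protein Rpgrip1.

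Atp2a1 (chr7:126445858-126463108, minus strand, GRCm38) was the most restricted of them. It had 47 UMIs in the Sham members and 0 in all other Sham cells, and 54 in the TBI members and 6 in all other TBI cells, so that 94.4% of its UMIs lay in pDCs. Of the UMIs of Gm21762, a predicted gene on chromosome 13, 88.6% lay in pDCs, with 29 and 88 in the members and 0 and 15 in all other cells. Gm34680 (chr16:32550211-32553708, plus strand), another predicted gene, had 638 and 525 CPM in pDCs against 4.30 and 2.78 in other cells, 147-fold and 187-fold higher. The long non-coding RNA gene Eldr had 152 and 246 CPM against 1.04 and 1.90.

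Cd209d stood at 836 CPM in Sham and 550 CPM in TBI pDCs, 52.1-fold and 64.7-fold above other cells, and its next highest class was cDC2 with 85.9 and 58.6 CPM. In Sham, 1 cell held 50 of its 165 UMIs. Lag3 stood at 294 and 246 CPM, against 7.69 and 10.2 in other cells. Upb1 was seen in 53 of the 71 members and Atp2a1 in 44, so that the specificity of these genes does not come from a few cells. Klra17, Cd209d and Ly6c2 belong to families of similar sequence whose reads could be split between copies, and their levels are uncertain to that extent.

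Of 40 genes listed as pDC identity outside the rule, all had a UMI and 38 had at least 20. Plac8 stood at 1662 and 1705 CPM and Cd7 at 1186 and 1260. Lymphoid genes known from pDCs were also present. Dntt, the polymerase that adds bases to rearranging antigen receptors, had 14 UMIs in 10 Sham members and 55 in 24 TBI members, with none in gated cDC1, 1 UMI in cDC2 and 15.9 and 101 CPM in B cells. Ighm had 100 and 169 UMIs in 67 of the 71 members (507 and 612 CPM, against 2211 and 2126 in B cells and 167 to 373 in cDC1, cDC2 and macrophages), while Ms4a1, Pax5, Cd22 and Ebf1 had none. Cd79b, a chain of the B cell receptor, had 13 and 28 UMIs in 30 of the 71 members (65.9 and 101 CPM, against 3584 and 3460 in B cells).

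Among themselves the members varied most in Malat1, Cxcl9, Hbb-bs, Gm42418, mt-Co1, Cst3, Cd74, mt-Co3, AY036118 and Hba-a1, the 10 genes with the largest ratio of variance to mean over the 68 members thinned to 1000 UMIs. That ratio was 39.2 for Malat1, a nuclear non-coding RNA, and 10.7 for Cst3, against a median of 1.04 over 1433 genes, where 1 would be expected from counting alone. Siglech had a ratio of 1.23 and Bst2 of 1.45, while the rule genes Klk1 and Cox6a2 had 2.87 and 3.14. Ly6d and Ly6c2, related surface proteins, had 3.43 and 3.42.

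The Malat1 spread followed depth. In the 10 members under 2000 UMIs, 5 from each library, Malat1 took 6.73% of UMIs against 0.492% in the 61 deeper members, and mitochondrial transcripts took a median of 12.6% against 2.24%. Tcf4 was also higher there, 3703 against 817 CPM, and Runx2, 1127 against 399, while Bst2 was lower, 966 against 4595, as were Ly6c2, 483 against 3157, Cd74, 2093 against 13428, and Actb, 2496 against 11457. Irf8 stood at 3864 against 2992 CPM, and Siglech at 3059 against 2051, where the rule asks for a Siglech UMI in every member and so fixes a high level in shallow cells. Their part in the other results was not tested beyond the values given without them.

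Klk1 and Cox6a2 are both rule genes, so their joint detection among the members is a description only. Of the 61 members with at least 2000 UMIs, 44 had both, 1 had only Klk1, 7 had only Cox6a2 and 9 had neither. The 9 without either were 4 Sham and 5 TBI cells, 5 of them in the main cluster, and both predicted doublets were among them. In those 5, Ly6c2 stood at 6962 CPM and Cd8a at 932, against 2807 and 154 in the 52 members with Klk1 or Cox6a2. Ly6d stood at 475 against 2765 CPM, Dntt at 0 against 187 and Cd74, the invariant chain of MHC class II, at 20065 against 10717. Cd8a, known as a marker of a pDC subset, was carried by 21 of the 61 members, and the 2 predicted doublets held 9 and 18 of its 108 UMIs together with 2 Cd3e UMIs each.

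The 4 cells without Klk1 and Cox6a2 outside the main cluster had Siglech at 160 CPM and Cst3, a protease inhibitor abundant in dendritic cells and macrophages, at 21266 CPM against 2109 in members with Klk1 or Cox6a2. One of them, a Sham cell of 17337 UMIs, held 25 of the 26 Sham UMIs of Id2 and 57 of Irf8. Another, a TBI cell of 7475 UMIs, held all 103 UMIs of Cxcl9, a chemokine induced by interferon-gamma. These 4 cells met the rule with 1 to 3 Siglech UMIs each. These Sham and TBI cells were the only members with a UMI of Xcr1, a marker of cDC1, and held 2 and 4. Clec9a, a receptor of cDC1 that pDCs also express, was seen in 44 of the 71 members (162 and 159 CPM).

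**Figure D3:**
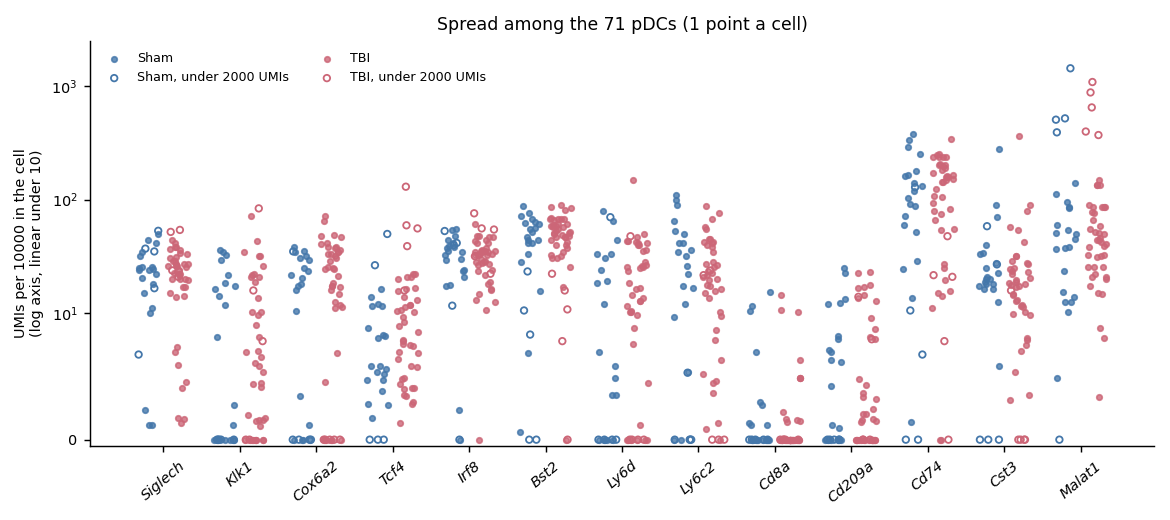
UMIs per 10000 in each of the 71 pDCs (vertical axis, logarithmic above 10 and linear under it) for 13 genes, Sham in blue and TBI in red, with open circles for members under 2000 UMIs. Siglech, Irf8 and Bst2 lie in a narrow band in most cells, while Klk1, Cox6a2, Ly6d and Cd8a fall at 0 in part of them and Malat1 is highest in the open circles.

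Proliferation was rare. A TBI member of 12224 UMIs, the one in the cluster led by Igll1 and Vpreb1, held 18 of the 19 UMIs of the cycling marker Mki67 and 183 of the 737 TBI UMIs of Ly6d, and had no UMI of Cd74. No Sham member had a Mki67 UMI. The differences between libraries in Top2a (3 and 20 UMIs), Birc5 (0 and 11) and Stmn1 (3 and 57) rest almost wholly on 1 cell, which held 19, 11 and 53 of the TBI UMIs.

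For the comparison of TBI with Sham, the UMIs of the members were summed per library, and a gene was called at 2-fold or more, on the scale of log2 CPM ratios with 0.5 UMI added to each sum. Of 3591 genes with at least 20 UMIs, 190 (5.29%) were at least 2-fold higher in TBI and 100 (2.78%) at least 2-fold lower. The counting interval lay above 0 for 5.49% of the genes and below 0 for 4.51%, and the median log2 ratio over all 3591 was 0.06. In 29 of the 190 higher genes and 44 of the 100 lower genes, 1 cell held over 25% of the UMIs in the library where the gene was higher. Of the 1433 genes with at least 50 UMIs, 23 were at least 2-fold higher and 6 at least 2-fold lower without such a cell.

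**Figure D4:**
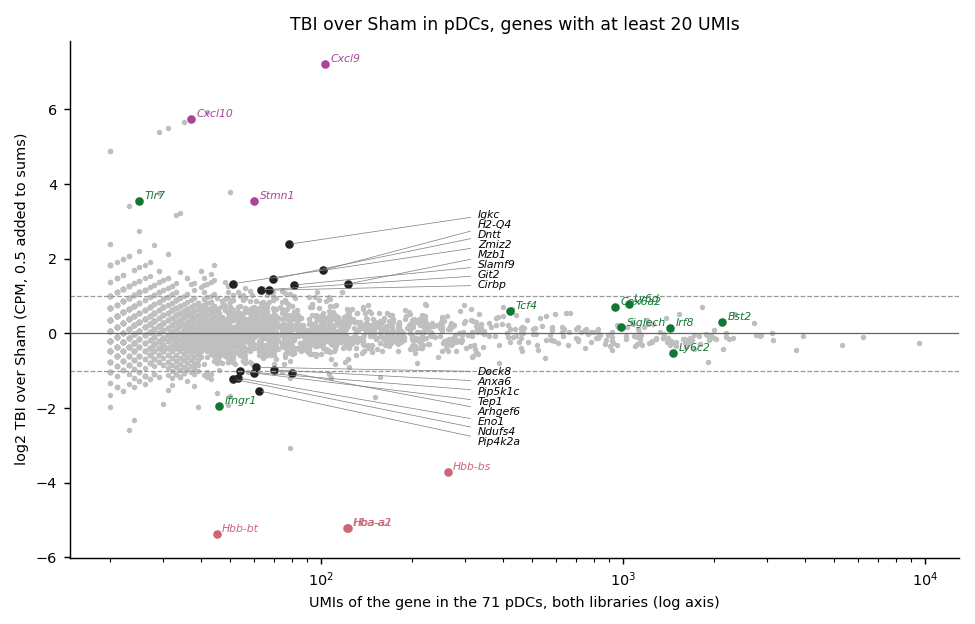
Log2 ratio of TBI over Sham in pDCs (vertical axis, 0.5 UMI added to each sum) against the UMIs of the gene over both libraries (logarithmic horizontal axis), 1 point for each of 3591 genes, with dashed lines at 2-fold. The hemoglobin genes lie lowest, Cxcl9 and Cxcl10 are high through 1 TBI cell and Stmn1 through another.

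The 8 genes with the largest log2 ratios among those with at least 50 UMIs and no dominant cell were Igkc, H2-Q4, Dntt, Zmiz2, Mzb1, Slamf9, Git2 and Cirbp. Igkc, the immunoglobulin kappa constant region, had 9 UMIs in 2 Sham members and 69 in 11 TBI members (log2 ratio 2.39, 1.45 to 3.64). It was near 0 in cDC1 and cDC2, with at most 2.22 CPM, and at 1585 and 1412 CPM in B cells. H2-Q4, a non-classical MHC class I gene with close copies, had 18 UMIs in 12 Sham members and 83 in 31 TBI members (1.69, 0.97 to 2.54), and its ratio was 0.53 after thinning. Mzb1, an endoplasmic reticulum co-chaperone of plasma cells, B cells and pDCs, had 27 UMIs in 9 Sham members and 96 in 23 TBI members (1.33, 0.72 to 2.02). Dntt stood at 70.9 and 199 CPM (1.45, 0.62 to 2.45). After thinning, Igkc (1.53), Dntt (1.08) and Mzb1 (1.22) were still past 2-fold, while Zmiz2 (0.91), Slamf9 (0.98), Cirbp (0.62) and Git2 (0.31) were not. Thinned ratios of single genes rest on few UMIs from a random draw and are given without intervals. A call lost by thinning therefore cannot show that a difference depends on depth.

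Igkc, Mzb1 and Dntt are shared with the B lineage, so the B cell markers are given beside them. Of 11 listed B cell markers, 4 had a UMI in the members and 7 had none, and Cd79a was at 0 by the rule. Their sum was 623 CPM in Sham and 970 CPM in TBI pDCs, with Ighm the most abundant, against 13469 and 12574 CPM in B cells. Igkc itself is in the list and gave 9 of the 123 Sham UMIs and 69 of the 268 TBI UMIs, and the 3 markers with at least 20 UMIs all lay above 0. Whether free B cell RNA has a part in the Igkc difference was not tested.

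Under the same limits of 50 UMIs and no dominant cell, the 8 genes with the smallest ratios were Pip4k2a, Ndufs4, Eno1, Arhgef6, Tep1, Pip5k1c, Anxa6 and Dock8. Pip4k2a, a phosphoinositide kinase, had 42 UMIs in 18 of 25 Sham members and 20 in 15 of 46 TBI members (log2 ratio -1.54, -2.40 to -0.76). Ndufs4, a subunit of respiratory complex I, had 32 and 19 UMIs (-1.22, -2.14 to -0.37), and the glycolytic enzyme Eno1 had 33 and 20 (-1.19, -2.09 to -0.36), with an Eno1 ratio of -0.54 among the members of the main cluster. The other 5 had log2 ratios from -1.06 to -0.91, and of these Tep1 was -0.58 among the members of the main cluster. After thinning, with the same limit of few UMIs, Pip4k2a was -1.45, Arhgef6 -1.90 and Dock8 -1.26, while Ndufs4 was -0.73, Eno1 -0.97, Pip5k1c -0.61, Tep1 -0.12 and Anxa6 0.41.

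Hemoglobin transcripts were higher in Sham. The members held 518 hemoglobin UMIs in Sham and 34 in TBI, of which 1 Sham cell held 439. Without that cell and the highest TBI cell the levels were 428 and 112 CPM, and in all other kept cells they were 1569 and 282 CPM, so the level was higher in the other Sham cells too. The part of red cell RNA in the other differences was not tested.

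No interferon gene was detected at this depth. All 21 listed interferon genes, 20 of type I or III and Ifng, had 0 UMIs in the 71 members, which allows up to 6.33 CPM. A count of 0 at this depth does not limit the share of members that express such a gene at a low level. In all kept cells of each library the 20 genes had 1 UMI. The sensing machinery was present. Unc93b1 stood at 907 and 1021 CPM, Irf7 at 329 and 478, and Pld4, an endosomal exonuclease that degrades ligands of Toll-like receptor 9, at 943 and 1252. The sensor genes were sparse. Tlr9 had 8 UMIs in each library, and Tlr7 had 1 UMI in 1 of 25 Sham members and 24 UMIs in 18 of 46 TBI members (log2 ratio 3.54, 1.48 to 9.46). After each cell was thinned to 1000 UMIs the Tlr7 ratio was 0.25, under 2-fold. Thinning is a random draw that left few UMIs of so sparse a gene, so that ratio cannot decide whether the difference depends on depth. Tlr3, a sensor of cDC1, had 7 UMIs, all in 1 Sham cell.

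Of 26 genes listed from nucleic acid sensing to interferon, 25 were in the matrices and 13 had at least 20 UMIs. Of these 13, 1 (Tlr7) was at least 2-fold higher in TBI and none at least 2-fold lower, beside 5.29% and 2.78% of all genes, and their median log2 ratio was 0.15, beside 0.06 over all genes (0.030 in the main cluster, beside 0.036). Among 12 receptor and signalling genes, 11 had at least 20 UMIs, 1 was at least 2-fold higher and 1, Ifngr1, at least 2-fold lower. Ifngr1, the ligand-binding chain of the interferon-gamma receptor, had 34 UMIs in 9 Sham members and 12 in 8 TBI members (-1.95, -3.07 to -1.003), and 1 Sham cell held 12 of the 34. Among the members of the main cluster the Ifngr1 ratio was -0.78.

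Of 46 genes induced by interferon, 44 were in the matrices, 41 had a UMI and 22 had at least 20. Of the 22, 2 were at least 2-fold higher, Oasl2 among them, none was at least 2-fold lower, 13 lay above 0 and 9 below, and the median log2 ratio was 0.19 (0.08 among members of the main cluster). Oasl2 had 6 and 18 UMIs, of which 1 TBI cell held 10, and its interval included 0 (1.02, -0.30 to 2.72). Bst2 was the most abundant of the list with a log2 ratio of 0.30 (0.17 to 0.43), which was -0.01 among the members of the main cluster. Isg15 had 18 UMIs in 5 Sham members and 37 in 11 TBI members (0.53, -0.30 to 1.45), Ly6e stood at 4008 and 3945 CPM (-0.02, -0.16 to 0.11) and Ifitm3 at 334 and 195 (-0.77, -1.32 to -0.23), with 54 of its 66 Sham UMIs in 1 cell outside the main cluster. One TBI cell held 14 of the 37 Isg15 UMIs. Ifit1, Ifit3b and Oas2 had no UMI. The 2 of 22 genes at least 2-fold higher stand beside 5.29% of all genes.

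**Figure D5:**
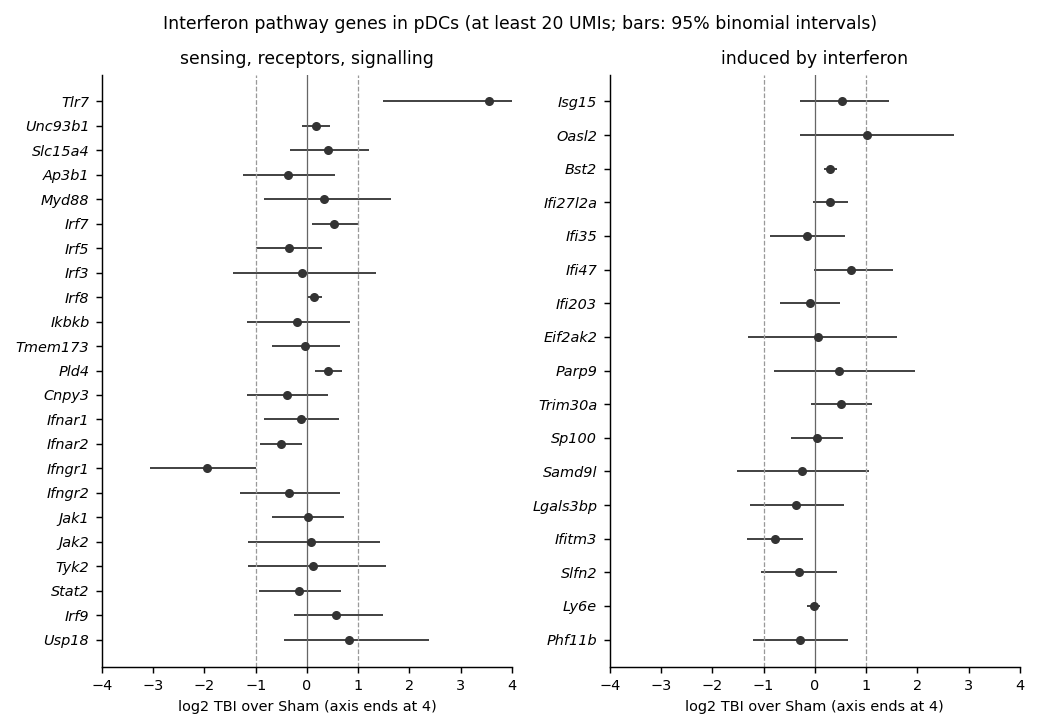
Log2 ratio of TBI over Sham in pDCs (horizontal axis, ending at 4) with 95% binomial intervals for genes of interferon sensing, receptors and signalling (left) and for other genes induced by interferon (right) with at least 20 UMIs. Tlr7 lies past 2-fold to the right with an interval above 0 and Ifngr1 to the left, while most other intervals include 0.

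Genes of antigen presentation are given by MHC class. Of 11 MHC class I genes, a list without H2-Q4, which was past 2-fold as given above, 10 had at least 20 UMIs, none was past 2-fold, 9 lay above 0, 5 had intervals above 0, beside 5.49% of all genes, and the median log2 ratio was 0.27. H2-K1 stood at 1976 and 2454 CPM (0.31, 0.13 to 0.50), H2-D1 at 2382 and 2831 (0.25, 0.08 to 0.42) and H2-Q7 at 334 and 565 (0.75, 0.33 to 1.19), and the H2-Q7 ratio was 0.0026 after thinning. Of 16 genes of MHC class II and costimulation, 10 had at least 20 UMIs, none was past 2-fold, 9 lay below 0, 4 had intervals below 0, beside 4.51% of all genes, and the median was -0.21. That median was 0.10 among the members of the main cluster. Cd74 stood at 13586 and 12806 CPM, and in cDC2 at 50492 and 54607. The costimulatory genes Cd86 (2 and 1 UMIs), Cd40 (3 and 3) and Cd80 (0) were close to absent, as was Ccr7 with 0 and 1 UMIs, which guides activated dendritic cells to lymph nodes.

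The secretory pathway had a higher sum in pDCs than in the other compared classes in both libraries. Its 28 listed genes summed to 8169 CPM in Sham and 9708 CPM in TBI pDCs, above cDC1 (5775 and 6085), cDC2 (5742 and 5300), B cells (5074 and 5465), macrophages (5834 and 5669) and fibroblasts (7162 and 6917). Of 26 genes with at least 20 UMIs, Mzb1 and Ostc, a subunit of the oligosaccharyltransferase, were at least 2-fold higher in TBI, none was at least 2-fold lower, 20 lay above 0 and the median log2 ratio was 0.23, beside 5.29% higher and a median of 0.06 over all genes. In the main cluster the secretory median was 0.083. Against other kept cells, 5 of the 26 were at least 2-fold higher in both libraries, beside 10.7% of all genes. None was at least 2-fold lower, and Pdia3 (0.98-fold and 1.03-fold) and Calr (0.96-fold and 1.07-fold) lay near the level of other cells. Hsp90b1, the chaperone that folds Toll-like receptors, stood at 998 and 1433 CPM (0.52, 0.27 to 0.78). Ostc had 20 and 59 UMIs (1.05, 0.32 to 1.89) in 13 and 33 members, and its ratio was 0.88 in the main cluster.

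Of 38 listed identity genes with at least 20 UMIs, 5 were at least 2-fold higher (Cd4, Dntt, Gm21762, Tlr7 and Mzb1), none was at least 2-fold lower, 29 lay above 0, 9 below, and the median log2 ratio was 0.28, beside 5.29% higher and a median of 0.06 over all genes. Among members of the main cluster the median was 0.06. Ly6d stood at 1540 and 2668 CPM (0.79, 0.60 to 0.99) over all members, and its log2 ratio was 0.11 in the main cluster. Cox6a2 stood at 1449 and 2360.0 CPM (0.70, 0.50 to 0.91), and its ratio was 0.32 there. Ly6c2 was lower in TBI, at 3740 and 2621 CPM (-0.51, -0.66 to -0.36), and its ratio was -0.71 in the main cluster. Tcf4 was 0.60 (0.31 to 0.91) over all members and 0.39 in the main cluster, and Siglech was 0.16 (-0.03 to 0.35) over all members and -0.11 in the main cluster.

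Of 17 listed homing receptors, 11 had at least 20 UMIs and none was past 2-fold, beside 5.29% higher and 2.78% lower over all genes, with a median log2 ratio of 0.03, beside 0.06. Selplg, the ligand of P-selectin, stood at 872 and 1111 CPM (0.35, 0.08 to 0.63), Ccr2 at 486 and 366 (-0.41, -0.83 to 0.01) and Cxcr3 at 91.2 and 94.1. Among growth factor receptors, 8 of 14 had at least 20 UMIs, none was past 2-fold, beside the same shares over all genes, 3 lay above 0 and 5 below, and the median was -0.26. Flt3, the receptor on which pDC development depends, stood at 162 and 130 CPM (-0.32, -1.04 to 0.42). Few cytokine transcripts were found. Il6, Il12b, Il1b, Il10, Ccl3 and Tnfsf10 had no UMI and Tnf had 0 and 3, all Cxcl9 (103 UMIs) and Cxcl10 (37) lay in the 1 TBI cell described above, all 19 Ccl5 UMIs lay in the TBI cell predicted as a doublet, and Tgfb1 stood at 198 and 246 CPM (0.31, -0.27 to 0.92).

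Markers of other cells are given as sums over each list. The monocyte list summed to 4236 and 2993 CPM, above the 889 and 843 CPM of other cells, through Ly6c2 and Ccr2, which pDCs also express, while Treml4, Ace, Vcan and Chil3 had no UMI. The plasma cell list summed to 157 and 395 CPM, against 104 and 70.9 in other cells, through Mzb1. The fibroblast list summed to 10.1 CPM in Sham and 177 CPM in TBI pDCs, with Igfbp5 the most abundant (0 and 29 UMIs) and Lum at 0, and in the TBI library it was also higher than in Sham in cDC2 (28.3 and 750) and B cells (20.6 and 325). Macrophage markers summed to 522 and 550 CPM, of which Cd68, also expressed by pDCs, held 197 UMIs, and C1qa, C1qb and C1qc were limited by the rule. T cell markers summed to 233 and 232 CPM, with Lat the most abundant. Of the neutrophil markers, S100a8 had 1 and 2 UMIs and Retnlg, Lcn2 and Mmp9 had none. Endothelial markers summed to 101 and 181 CPM, with Cdh5 at 6 and 24 UMIs. Natural killer cell markers had 1 and 8 UMIs and those of mast cells and basophils 1 and 5.

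Genes of conventional or transitional dendritic cells, 16 in the list, had at least 20 UMIs for 6, none at least 2-fold higher, 2 (Id2 and Itgax) at least 2-fold lower and a median log2 ratio of -0.34, beside 2.78% lower and a median of 0.06 over all genes. The Id2 ratio of -1.17 reversed in 3 of its 12 alternatives, reaching 2.62 with at least 3 rule genes. Of the Sham UMIs of Id2, 25 of 26 lay in the 1 cell described above. Of the 21 Sham UMIs of Itgax, 5 lay in that cell and 7 in another cell outside the main cluster. Of 20 stress and early response genes, 10 had at least 20 UMIs, and 1, Jun with 20 and 13 UMIs, was at least 2-fold lower (-1.09), beside 2.78% of all genes, with a median of 0.02 for the list and 0.06 over all genes. The part of markers of other cells in these differences was not tested.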

How the data were processed

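Per the labels and the study's methods, the authors aligned reads to mm10 and counted UMIs with Cell Ranger and deposited 1 matrix of UMI counts per library, as counts not normalized. The version differs between sources (2.1.1 in the submitters' processing notes, 3.1.0 in the matrix headers, another in the methods), and no source used here gives the annotation release or strand setting. The deposited barcodes exceed the cells that the study states.

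Barcodes were kept with 150 to 5000 genes if mitochondrial transcripts took up to 20% of UMIs and hemoglobin up to 5%. Members and gene lists were chosen with earlier results of these data known. UMIs were summed per library and class (NumPy 2.4.6, SciPy 1.17.1, pandas 2.3.3). Shares and ratios have exact binomial (Clopper-Pearson) and CPM exact Poisson 95% intervals. Clustering used 2000 variable genes, 20 components, 20 neighbours and Leiden at resolution 0.8 (leidenalg 0.10.2, scikit-learn 1.9.0). Doublets were scored against 2 summed cell pairs per cell and kept. Ratio and thinning code was tested on simulated data. Positions are from GENCODE M21.

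Named genes are the rule genes, listed genes, the 20 most specific, the 8 highest and 8 lowest TBI over Sham with at least 50 UMIs and no cell over 25%, and the 10 most variable. No column of per-sample values was left out. Some listed genes are counted in their lists but not reported here by name, in the text or in the figures.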

Additional observations from a re-analysis of the deposited data

How the results depend on the processing

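Of 14 alternatives, 2 (members of the main cluster, members with at least 2000 UMIs) were chosen after seeing the data. No paired analysis was possible because each group has 1 library. Genes at least 2-fold higher in TBI numbered 190, against 321 with the mean over cells, 17 after thinning to 1000 UMIs, and 515 and 27 with limits of 10 and 50 UMIs. Those at least 2-fold lower numbered 100, against 177, 13, 332 and 19 in that order, 55 with at least 3 rule genes and 56 in the main cluster. Genes 2-fold above other cells numbered 386, against 114 after thinning and 224 with 50 UMIs. The limits changed how many genes qualified, 3591 with 20 UMIs and 1433 with 50, and thinning left fewer UMIs to sum. These counts are therefore not shares, and a smaller count does not mean a smaller share of the genes. The identity median (0.28) was 0.10 with at least 3 rule genes and 0.061 in the main cluster, and that of interferon-induced genes (0.19) was 0.39 after thinning. The MHC class II median (-0.21) was 0.12 without the C1q and Cd79a exclusions, -0.021 after thinning and 0.10 in the main cluster. Id2 (-1.17) reversed to 2.62 with 3 rule genes, 1.84 after thinning and 2.49 in the main cluster. After thinning, which left few UMIs of each gene, Irf7 (0.53) was -0.48, Anxa6 (-0.98) was 0.41 and Tlr7 (3.54) was 0.25. The causes were not tested. The sensing median (0.15) was 0.030 in the main cluster and 0.032 with the mean over cells, where that of all genes was 0.036 and 0.088. The secretory median (0.23) ranged from 0.083 in the main cluster to 0.69 after thinning, and the MHC class I median (0.27) from 0.18 to 0.36.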

Other observations

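Of the barcodes outside the quality limits, 1 of 656 in Sham and 2 of 576 in TBI met the pDC rule, with a median of 786 UMIs.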
